A study of Mus musculus with 16 samples.

Results

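The genes described here build the gate at the base of the primary cilium and the membrane traffic through it. There are 34 of them, chosen by symbol from the 24421 genes listed for each library. They comprise 13 genes of the MKS module of the transition zone, 4 of its scaffold and NPHP module, 7 subunits of the BBSome, 4 genes for assembly or recruitment of the BBSome, 2 ciliary ARL GTPases with the lipid phosphatase Inpp5e, and 3 genes of the inversin compartment and the basal body. RNA was measured in mouse embryos at embryonic day 8.5, in the part of the head between the first branchial arch and the upper edge of the otic vesicle. The 4 groups held 4 libraries each: Ift88-null homozygotes on the enriched diet with 10 ppm folic acid, wild type embryos on the enriched diet, Ift88-null homozygotes on the moderate diet with 2 ppm folic acid, and wild type embryos on the moderate diet. Both diets had been given for 3 generations. The labels give the null genotype for the whole embryo and name no tissue to which it is limited. Litters are not given, so each p-value reflects only how far these libraries differ among themselves. In a piece of tissue with many cell types, fewer cells of a type and less RNA per cell cannot be told apart.

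The primary cilium is an antenna on a microtubule core, and Hedgehog receptors act in its membrane. Ift88 is a subunit of the intraflagellar transport particle that moves cargo along that core, and without it no cilium is built. The transition zone lies between the basal body and the shaft, where Y-shaped links join microtubules to membrane and restrict which proteins pass. The BBSome is a coat complex that the GTPase Arl6 recruits to membranes and that carries membrane proteins out of the cilium. Arl13b and Arl3 release lipid-modified proteins inside the cilium, and Inpp5e sets its phosphoinositide content. In humans, loss of these genes gives Joubert, Meckel, Bardet-Biedl and nephronophthisis syndromes, some with malformed hindbrain and face.

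Between 19249433 and 44267434 reads per library were assigned to genes, and the 34 genes took 0.0727 to 0.0909% of them. The member with the fewest reads in a library had 59 to 179. Ift88 averaged 4.93 ± 2.69 CPM (reads scaled to the library total) in enriched mutants, 19.6 ± 1.42 CPM in enriched wild type, 3.81 ± 1.87 CPM in moderate mutants and 17.7 ± 5.63 CPM in moderate wild type (SD, n = 4 each). Each of the 8 mutants was below each of the 8 wild type libraries, although enriched mutant replicate 2 had 8.61 CPM and moderate wild type replicate 2 had only 9.30 CPM. Ift88 reads were present in every mutant library, at 10.0 to 43.1% of the average over the 7 remaining wild type heads. Counts of sex-linked genes went against the sex label of moderate mutant replicates 1 and 2 and of moderate wild type replicate 2. On the first principal component, moderate mutant replicate 3 lay at -3.66, between the other mutants at 14.7 to 23.7 and the wild type libraries at -19.3 to -12.6. Markers of head tissue were present, with summed neural ectoderm genes at 597 to 752 CPM in the mutants and 599 to 649 CPM in wild type. Of 6 multiciliated cell markers, 4 were tested and Foxj1, which drives motile cilia, fell on both diets. The sum of the 6 was 6.10 to 7.69 CPM in enriched mutants and 7.76 to 11.1 in enriched wild type. On the moderate diet it was 5.53 to 8.08 CPM in mutants and 7.17 to 11.8 in wild type. Foxj1 was lower in every mutant than in every wild type library. None of the other tested markers passed on either diet, and each overlapped between the genotypes on both. Dnah5 went the other way on the enriched diet, each mutant lying above wild type replicates 1, 2 and 3. Mcidas reached at most 0.0479 CPM and Ccno at most 0.433 CPM in any library. Whether these heads held multiciliated cells, and the part of such cells in the results below, was not tested. In enriched mutants 1 of 7 erythroid markers fell, and 2 of 6 endothelial markers rose and 2 fell. In the same mutants 1 of 5 surface ectoderm, 1 of 5 neural ectoderm and 1 of 2 tested decidua markers rose. Of all genes tested, 14.4% rose and 16.8% fell on the enriched diet. In moderate mutants 2 of 6 endothelial markers and 1 of 5 surface ectoderm markers rose, while 4.79% of all genes rose and 2.83% fell. Whether the share of any cell type differed was not tested. The erythroid sum was 703 to 3548 CPM in enriched mutants, 1473 to 3740 in enriched wild type, 1221 to 3305 in moderate mutants and 2404 to 6359 in moderate wild type. The sum of the maternal decidua markers reached 189 CPM in enriched mutant replicate 3 and at most 3.97 CPM in wild type. In that library Prl8a2 alone had 188.6 CPM. The other decidua markers did not follow, with Dcn at 0.689 CPM there and Prl3c1 without reads in any library.

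Transcripts of the 34 genes stayed present in Ift88-null heads, most within 1.5-fold of wild type, and a minority moved in both directions. On the enriched diet 7 members rose in mutants and 4 fell (edgeR, adjusted p under 0.05 over all genes by the Benjamini-Hochberg method). That is 32.4% of the 34, beside 31.2% of all 14514 genes tested (14.4% up and 16.8% down), so the share of members that changed was near that of any gene. On the moderate diet 2 members rose and none fell, 5.88% beside a background of 7.62% (4.79% up and 2.83% down). Averaged over the diets, 9 rose and 3 fell, 35.3% beside 35.8% (17.4% up and 18.5% down). The median log2 fold change of the members was 0.17 on the enriched diet, 0.04 on the moderate diet and 0.12 averaged, while over all genes it was -0.01 each time. The 95% interval of the genotype effect lay within 1.5-fold either way for 25 of 34 members on the enriched diet and for 30 of 34 on the moderate diet. With sex read from the counts in place of the label, 8 members passed on the enriched diet (Ahi1, Tctn1 and Arl6 did not), 2 on the moderate diet and 11 averaged (Mkks did not). The count on the moderate diet was 0 without moderate mutant replicate 1, 2 or 4 or moderate wild type replicate 3, 1 without moderate wild type replicate 1, 2 or 4, and 6 without moderate mutant replicate 3.

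**Figure D1:**
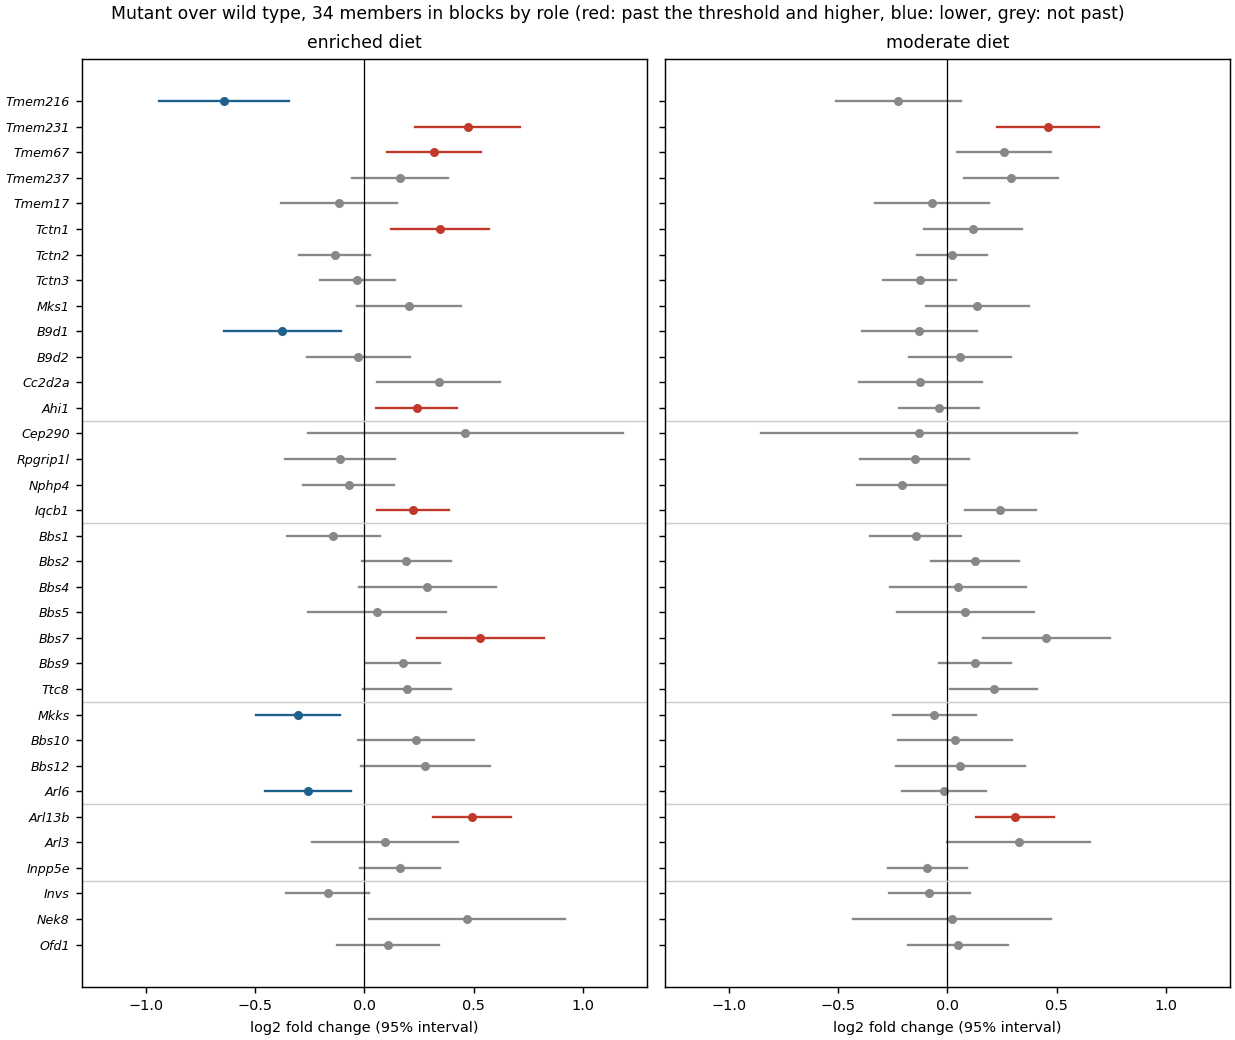
Log2 fold change of each of the 34 genes, mutant over wild type, with its 95% interval, on the enriched diet (left) and the moderate diet (right), in blocks by role. Red marks members that rose and blue those that fell, 7 and 4 on the enriched diet and 2 and 0 on the moderate diet, grey marks those that did not pass, and Cep290 has the widest interval.

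The libraries of the 2 genotypes did not overlap for 9 of 34 members on the enriched diet, 26.5% beside 23.7% of all genes. Tmem231, Tmem67, Iqcb1, Bbs7, Bbs9 and Arl13b lay above in mutants, and Tmem216, B9d1 and Invs lay below. On the moderate diet 4 members were apart, 11.8% beside 15.6%, with Iqcb1, Bbs7 and Bbs9 above in mutants and Nphp4 below. Iqcb1, Bbs7 and Bbs9 were therefore apart on both diets, although no member separated all 8 mutants from all 8 wild type libraries, beside 4.44% of genes that did.

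The MKS module holds the membrane proteins and B9 proteins of the transition zone. On the enriched diet 4 of its 13 genes rose in mutants (Tmem231, Tmem67, Tctn1, Ahi1), 2 fell (Tmem216, B9d1) and 7 did not pass, so 46.2% changed, beside 31.2% of all genes (14.4% up and 16.8% down). Tmem231, a membrane protein of the ring that anchors the MKS complex, had 33.6, 38.7, 32.4 and 33.7 CPM in enriched mutants, against 27.5, 21.5, 26.97 and 26.9 CPM in enriched wild type. It had 36.8, 35.8, 24.3 and 35.3 CPM in moderate mutants, against 23.1, 25.8, 23.3 and 23.5 CPM in moderate wild type. Enriched mutants were all above their wild type, and 3 of 4 moderate mutants were well above theirs, replicate 3 alone falling inside the wild type range. The log2 fold change was 0.47 ± 0.11 (SE) on the enriched diet (edgeR adjusted p = 0.00580) and 0.46 ± 0.11 on the moderate diet (adjusted p = 0.0177). Tmem231 lies on chromosome 8 from 111912011 to 111933881 on the minus strand of mm10.

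Tmem216, a small membrane protein of the same complex, went the other way. It had 15.9, 13.8, 20.2 and 13.7 CPM in enriched mutants, against 25.3, 21.7, 27.4 and 21.7 CPM in enriched wild type. It had 18.4, 23.1, 24.2 and 16.3 CPM in moderate mutants, against 23.5, 23.5, 23.8 and 25.03 CPM in moderate wild type. All enriched mutants were below their wild type, while on the moderate diet only mutant replicates 1 and 4 stood clearly below. It fell by 36.0% on the enriched diet (log2 fold change -0.64 ± 0.14, edgeR adjusted p = 0.00351). On the moderate diet the log2 fold change was -0.22 ± 0.14, which did not pass (adjusted p = 0.340). Tmem216 lies on chromosome 19 from 10533865 to 10556238 on the minus strand. Its exons share 5.15% of their bases with Cpsf7 on the other strand, and the library kit kept no strand, so some reads could belong to either gene.

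Tmem67, the meckelin receptor, had 20.1, 16.5, 19.6 and 21.3 CPM in enriched mutants, against 15.7, 16.1, 14.7 and 15.6 CPM in enriched wild type. It had 17.5, 19.3, 15.1 and 19.8 CPM in moderate mutants, against 14.2, 14.8, 15.7 and 15.2 CPM in moderate wild type. Mutants were above on both diets except for moderate replicate 3, which sat inside the wild type range. The log2 fold change was 0.32 ± 0.10 on the enriched diet (edgeR adjusted p = 0.0271) and 0.29 ± 0.07 averaged over the diets (adjusted p = 0.00573). On the moderate diet alone it was 0.26 and did not pass (adjusted p = 0.131). The enriched call was lost without enriched mutant replicate 4 or enriched wild type replicate 3, and over all alternatives its adjusted p reached 0.109.

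Tctn1, a tectonic protein of the complex, had 13.4, 15.5, 13.4 and 18.4 CPM in enriched mutants, against 12.1, 11.4, 11.1 and 14.8 CPM in enriched wild type. It had 12.1, 10.9, 10.7 and 12.5 CPM in moderate mutants, against 10.6, 9.59, 12.3 and 10.1 CPM in moderate wild type. Replicate 4 was the highest of both enriched groups, which overlap. The enriched log2 fold change was 0.35 ± 0.11 (edgeR adjusted p = 0.0222). That call was lost without enriched mutant replicate 4 or enriched wild type replicate 3, and without a sex covariate, and over all alternatives its adjusted p reached 0.0943. Tctn1 shares 18.98% of its exon bases with Hvcn1 on the other strand.

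Tmem237, a membrane protein that helps to build the zone, had 45.2, 42.2, 44.2 and 38.1 CPM in enriched mutants, against 40.8, 36.3, 37.7 and 35.9 CPM in enriched wild type. It had 43.3, 50.4, 38.6 and 43.5 CPM in moderate mutants, against 38.7, 39.4, 36.6 and 29.3 CPM in moderate wild type. The groups overlapped on both diets, each time by 1 mutant library. It passed only averaged over the diets, with a log2 fold change of 0.23 ± 0.07 (edgeR adjusted p = 0.0228).

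B9d1, a B9 protein beneath the membrane, averaged 15.95 ± 1.76 CPM in enriched mutants and 20.7 ± 2.69 CPM in enriched wild type (SD, n = 4 each), and fell by 0.38 ± 0.13 on the log2 scale (edgeR adjusted p = 0.0338). Ahi1, the Joubert protein jouberin, averaged 49.2 ± 4.98 CPM in enriched mutants and 42.3 ± 3.86 CPM in enriched wild type. Its log2 fold change was 0.24 ± 0.09 (adjusted p = 0.0470). Both calls are close to the threshold. B9d1 lost its enriched call in 11 of 16 fits that each left out 1 library, and Ahi1 in 4 of 16. Over all alternatives the adjusted p reached 0.177 for B9d1 and 0.168 for Ahi1.

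The other MKS genes did not pass in any comparison. Cc2d2a, the coiled-coil protein that holds the module together, had the largest enriched difference among them, with 26.1 ± 4.71 CPM in mutants and 20.9 ± 2.37 CPM in wild type (log2 fold change 0.34, edgeR adjusted p = 0.0625). On the moderate diet its means were 20.8 ± 3.40 CPM in mutants and 22.7 ± 1.74 CPM in wild type. Mks1, Tmem17, Tctn2, Tctn3 and B9d2 had enriched log2 fold changes between -0.14 and 0.20.

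**Figure D2:**
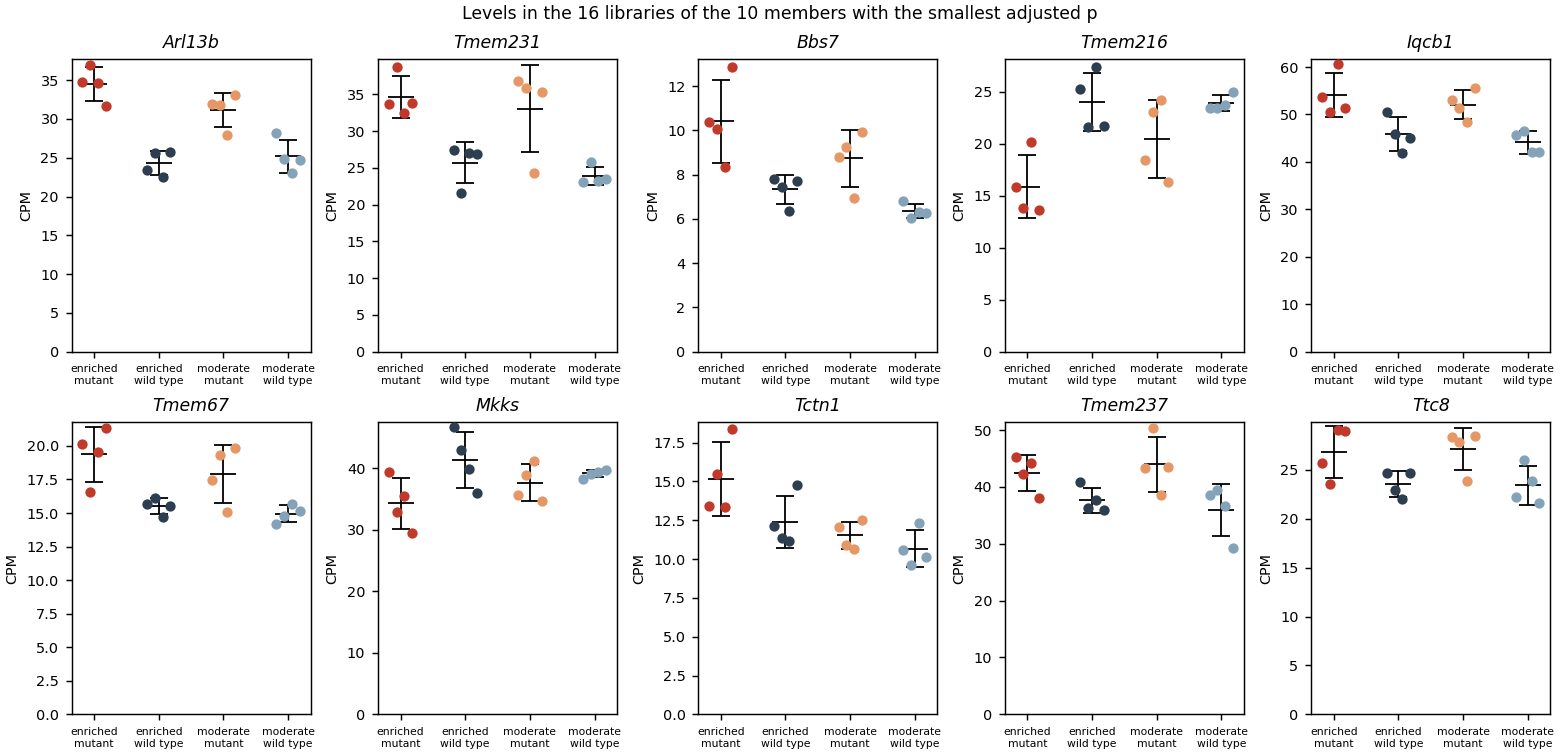
CPM (y axis from 0) of the 10 members with the smallest adjusted p in the 16 libraries, 1 point per library, with mean and SD (n = 4) of enriched mutants, enriched wild type, moderate mutants and moderate wild type from left to right. Arl13b, Tmem231 and Bbs7 are higher in mutants on both diets, and Tmem216 is lowest in enriched mutants at 13.7 to 20.2 CPM.

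In the scaffold and NPHP module, Iqcb1 was the only gene of 4 to pass, on the enriched diet and averaged over the diets. That is 25% each time, beside 31.2% and 35.8% of all genes. Iqcb1, or nephrocystin-5, binds the scaffold protein Cep290 and lies on chromosome 16 from 36828385 to 36872721. It had 53.7, 50.6, 60.7 and 51.4 CPM in enriched mutants, against 50.5, 45.8, 41.9 and 45.1 CPM in enriched wild type. It had 53.02, 51.3, 48.4 and 55.6 CPM in moderate mutants, against 45.7, 46.5, 42.1 and 42.1 CPM in moderate wild type. On each diet every mutant was above every wild type library, by a narrow margin on the enriched one. The log2 fold changes of 0.22 ± 0.08 on the enriched diet (edgeR adjusted p = 0.0409) and 0.24 ± 0.08 on the moderate diet (adjusted p = 0.0661) averaged 0.23 ± 0.05 (adjusted p = 0.00408). The enriched call was lost in 5 of 16 fits that left out 1 library each, with an adjusted p of up to 0.116 over all alternatives, while the averaged call was kept in all of them.

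Cep290, whose protein spans the Y-links, was the least even member. It had 21.3, 15.1, 21.2 and 46.3 CPM in enriched mutants, against 16.01, 23.8, 11.9 and 25.4 CPM in enriched wild type. It had 20.7, 9.76, 17.9 and 27.6 CPM in moderate mutants, against 21.1, 18.4, 29.1 and 15.5 CPM in moderate wild type. The groups overlapped throughout, and enriched mutant replicate 4 was far above all other libraries. Its enriched log2 fold change was 0.46 with a 95% interval of -0.26 to 1.18 (edgeR adjusted p = 0.316), so a 2-fold rise lies within the interval. Rpgrip1l, a further scaffold protein, had 25.3 ± 3.54 CPM in enriched mutants and 27.0 ± 3.55 CPM in enriched wild type. Nphp4, which joins the NPHP proteins to the zone, had 14.2 ± 0.618 CPM in moderate mutants and 16.4 ± 1.51 CPM in moderate wild type. Those moderate groups did not overlap, with a log2 fold change of -0.21 and an adjusted p of 0.204.

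Of the 7 BBSome subunits among the members, Bbs7 passed on the enriched diet, and Bbs7, Bbs9 and Ttc8 passed averaged over the diets. All were higher in mutants. That is 14.3% and 42.9% of these subunits, beside 31.2% and 35.8% of all genes. Bbs7, a propeller subunit on chromosome 3 from 36573142 to 36613477, had 10.4, 10.04, 8.33 and 12.9 CPM in enriched mutants, against 7.81, 7.44, 6.37 and 7.72 CPM in enriched wild type. It had 8.81, 9.26, 6.93 and 9.92 CPM in moderate mutants, against 6.82, 6.05, 6.33 and 6.27 CPM in moderate wild type. On each diet every mutant was above every wild type library, and moderate mutant replicate 3 was the closest to them. The log2 fold change was 0.53 ± 0.14 on the enriched diet (edgeR adjusted p = 0.00928), 0.45 ± 0.14 on the moderate diet (adjusted p = 0.0548) and 0.49 ± 0.10 averaged (adjusted p = 0.00120).

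Ttc8, the repeat protein also called Bbs8, had 25.7, 23.6, 29.1 and 28.97 CPM in enriched mutants, against 24.6, 22.9, 22.03 and 24.7 CPM in enriched wild type. It had 28.3, 27.9, 23.9 and 28.5 CPM in moderate mutants, against 22.2, 26.05, 23.9 and 21.6 CPM in moderate wild type. The groups overlapped on both diets, since enriched mutant replicate 2 and moderate mutant replicate 3 lay inside the wild type range. Averaged over the diets its log2 fold change was 0.20 ± 0.07 (edgeR adjusted p = 0.0265). Bbs9, a central propeller subunit, averaged 17.9 ± 0.643 CPM in enriched mutants and 15.9 ± 0.679 CPM in enriched wild type, and 16.9 ± 0.646 CPM in moderate mutants and 15.4 ± 0.986 CPM in moderate wild type. Its averaged log2 fold change was 0.15 ± 0.06 (adjusted p = 0.0436), the smallest difference that passed. Without enriched mutant replicate 4 neither Ttc8 nor Bbs9 passed, and over all alternatives their adjusted p reached 0.0842 for Ttc8 and 0.235 for Bbs9.

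Bbs1, which binds cargo and Arl6, was the only 1 of these 7 subunits with a lower mean in mutants on both diets. Its averaged log2 fold change was -0.14, and it did not pass. Bbs2, Bbs4 and Bbs5 had averaged log2 fold changes of 0.16, 0.17 and 0.07 and did not pass either. Bbip1, a BBSome gene outside the members, also had a lower mean in mutants on both diets, with overlapping groups. It averaged 31.5 ± 3.43 CPM in enriched mutants and 34.4 ± 3.30 CPM in enriched wild type. On the moderate diet it averaged 31.3 ± 2.31 CPM in mutants and 33.4 ± 1.49 CPM in wild type. Of the 4 genes for assembly and recruitment of the BBSome, none rose and 2 fell on the enriched diet. That is 50%, beside 31.2% of all genes (14.4% up and 16.8% down). Averaged over the diets 1 of the 4 fell, 25% beside 35.8% of all genes. Mkks and the chaperonin-like Bbs10 and Bbs12 help to assemble the subunits, and Arl6 brings the finished coat to membranes.

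Mkks had 39.4, 32.9, 35.5 and 29.5 CPM in enriched mutants, against 46.7, 42.98, 39.9 and 36.00 CPM in enriched wild type. It had 35.6, 38.9, 41.2 and 34.7 CPM in moderate mutants, against 38.3, 39.1, 39.4 and 39.8 CPM in moderate wild type. On the enriched diet the groups overlapped only through mutant replicate 1 and wild type replicate 4. It fell by 0.30 ± 0.09 on the log2 scale on the enriched diet (edgeR adjusted p = 0.0196), and on the moderate diet the log2 fold change was -0.06 (adjusted p = 0.742). Mkks shares 29.3% of its exon bases with AL731706.1 on the same strand, a gene not listed for these libraries. It shares 5.33% with Slx4ip on the other strand, so some reads could belong to another gene. Arl6 averaged 23.3 ± 2.56 CPM in enriched mutants and 27.3 ± 2.58 CPM in enriched wild type, a log2 fold change of -0.26 ± 0.09 (adjusted p = 0.0450). Leaving out 1 library at a time, Arl6 lost its enriched call in 13 of 16 fits and Mkks in 5 of 16. Over all alternatives the enriched adjusted p reached 0.176 for Arl6 and 0.0803 for Mkks. Mkks was also the gene that fell averaged over the diets. That call was lost in 13 of 16 fits that left out 1 library, and its adjusted p reached 0.122 over all alternatives. Bbs10 and Bbs12 had enriched log2 fold changes of 0.23 and 0.28 and did not pass.

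Arl13b, a GTPase of the ciliary membrane and a Joubert syndrome gene in humans, had the smallest adjusted p of all members in each genotype comparison except that on the moderate diet, where Tmem231 did. It had 34.8, 37.00, 34.7 and 31.6 CPM in enriched mutants, against 23.4, 25.7, 22.6 and 25.7 CPM in enriched wild type. It had 31.9, 31.8, 27.9 and 33.05 CPM in moderate mutants, against 28.1, 24.9, 23.02 and 24.7 CPM in moderate wild type. Enriched mutants were all above their wild type by a wide margin, and on the moderate diet only mutant replicate 3 fell just below wild type replicate 1. The log2 fold change was 0.49 ± 0.08 on the enriched diet (edgeR adjusted p = 0.000833), 0.31 ± 0.08 on the moderate diet (adjusted p = 0.0331) and 0.40 ± 0.06 averaged (adjusted p = 0.000128). Arl13b lies on chromosome 16 from 62793685 to 62847040 on the minus strand.

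Arl3, the GTPase that Arl13b activates, averaged 81.9 ± 16.4 CPM in enriched mutants and 76.2 ± 9.36 CPM in enriched wild type, and 91.7 ± 8.79 CPM in moderate mutants and 73.2 ± 15.6 CPM in moderate wild type. Its averaged log2 fold change of 0.21 did not pass (edgeR adjusted p = 0.151). Inpp5e averaged 31.6 ± 5.04 CPM in enriched mutants and 29.0 ± 2.74 CPM in enriched wild type and shares 20.3% of its exon bases with Pmpca on the other strand. In the inversin compartment, Invs averaged 16.1 ± 1.57 CPM in enriched mutants and 18.2 ± 0.564 CPM in enriched wild type, without overlap but without passing (adjusted p = 0.162). The kinase Nek8 had 3.81, 3.85, 3.13 and 7.79 CPM in enriched mutants, against 3.45, 3.14, 3.36 and 4.15 CPM in enriched wild type, so its enriched log2 fold change of 0.47 (adjusted p = 0.0999) drew on replicate 4. The basal body gene Ofd1 had log2 fold changes of 0.11 on the enriched diet and 0.05 on the moderate diet.

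Arl13b and Tmem231 were the members that rose on both diets, and their promoters are shown because the data give them the same direction. Their calls on the moderate diet depended on single libraries. Leaving out 1 library at a time, Tmem231 lost that call in 5 of 16 fits and Arl13b in 6 of 16. Over all alternatives the adjusted p on the moderate diet reached 0.335 for Tmem231 and 0.546 for Arl13b. The windows hold 250 bases before and 30 after the RefSeq start site (build GRCm38.p6), Arl13b at chr16:62847011-62847290 and Tmem231 at chr8:111933784-111934063, both on the minus strand, with each GTTGCC on the printed strand in capitals.
Arl13b: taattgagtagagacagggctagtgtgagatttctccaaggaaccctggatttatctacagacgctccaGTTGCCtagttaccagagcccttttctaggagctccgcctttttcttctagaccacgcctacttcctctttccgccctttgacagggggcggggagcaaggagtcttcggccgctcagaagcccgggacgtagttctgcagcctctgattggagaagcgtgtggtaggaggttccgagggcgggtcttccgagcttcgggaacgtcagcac
Tmem231: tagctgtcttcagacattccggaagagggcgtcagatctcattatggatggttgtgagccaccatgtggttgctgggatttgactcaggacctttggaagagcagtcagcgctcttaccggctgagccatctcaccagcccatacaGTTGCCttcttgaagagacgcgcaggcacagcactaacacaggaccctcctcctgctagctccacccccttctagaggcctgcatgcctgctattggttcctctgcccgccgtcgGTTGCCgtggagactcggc
GTTGCC can be a part of the X-box, the motif of RFX transcription factors, which are known to drive ciliary genes. These letters alone are not a match of the whole X-box. GTTGCC stands 181 bases before the start site of Arl13b, and 104 bases before and 11 bases after that of Tmem231.

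Windows with 50 bases after the start were searched on both strands in 33 of the 34 members. GTTGCC was found in 14 of them (42.4%), beside 1617 of 10893 tested genes with a window (14.8%). A match of the X-box itself was found in 21 members (63.6%) and in 37.8% of genes. The palindrome GTTNCCNNGGNAAC, of which GTTGCC can be a part, was found in 4 members (12.1%) and in 69 genes (0.633%). These 4 matches are shown with the fixed letters of the palindrome in capitals and the other letters in lower case, at chr10:20952568-20952581 (plus strand) for Ahi1, chr3:36613497-36613510 (minus) for Bbs7, chr11:87853191-87853204 (plus) for Mks1 and chr5:122264411-122264424 (minus) for Tctn1.
Ahi1: GTTaCCtaGGcAAC
Bbs7: GTTgCCttGGaAAC
Mks1: GTTgCCagGGgAAC
Tctn1: GTTgCCcgGGcAAC
They begin 121 bases before the RefSeq start site in Bbs7 and 24 before in Mks1, and 21 bases after it in Ahi1 and 36 after in Tctn1. For Bbs7 and Tmem231 the RefSeq start site differs from the GENCODE gene end given above. GTTGCC was present in 6 of 9 members with a window that were higher in mutants, in 1 of 4 that were lower, and in 7 of 20 that passed in no comparison. A match is a description of letters in a window and says nothing of whether a factor binds there.

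No member passed a comparison of the diets in either genotype. Between enriched and moderate mutants, 0 of 34 members passed with edgeR, DESeq2 or limma, and 3 had an unadjusted p under 0.05, beside 10.8% of all genes. Over all genes edgeR called 0, limma 0 and DESeq2 3. Tctn1 had the smallest p, with 13.4 to 18.4 CPM in enriched mutants and 10.7 to 12.5 CPM in moderate mutants, and it was the 1 member whose groups did not overlap, 2.94% of members beside 3.20% of genes. Its log2 fold change was 0.33 ± 0.11 (unadjusted p = 0.00709, edgeR adjusted p = 0.442). Tmem216 had 15.9 ± 3.05 CPM in enriched mutants and 20.5 ± 3.75 CPM in moderate mutants, a log2 fold change of -0.35 ± 0.14 (unadjusted p = 0.0226, adjusted p = 0.442). Cc2d2a had 26.1 ± 4.71 CPM in enriched mutants and 20.8 ± 3.40 CPM in moderate mutants (0.31 ± 0.14, unadjusted p = 0.0382, adjusted p = 0.446). The 95% interval of this diet effect lay within 1.5-fold for 30 of 34 members.

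Between enriched and moderate wild type, 0 of 34 members passed with any of the 3 tools, and 0 had an unadjusted p under 0.05, beside 2.44% of all genes. Over all genes edgeR called 0, limma 0 and DESeq2 1. Log2 fold changes ran from -0.21 in Cep290 to 0.16 in Bbs7, with a median of 0.00, and the groups of every member overlapped, beside 2.52% of genes without overlap. The median size of the log2 fold change was 0.07 for members and 0.10 for all genes. The 95% interval lay within 1.5-fold for 32 of 34 members, so in wild type heads a diet effect beyond that size was outside the interval for these 32.

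**Figure D3:**
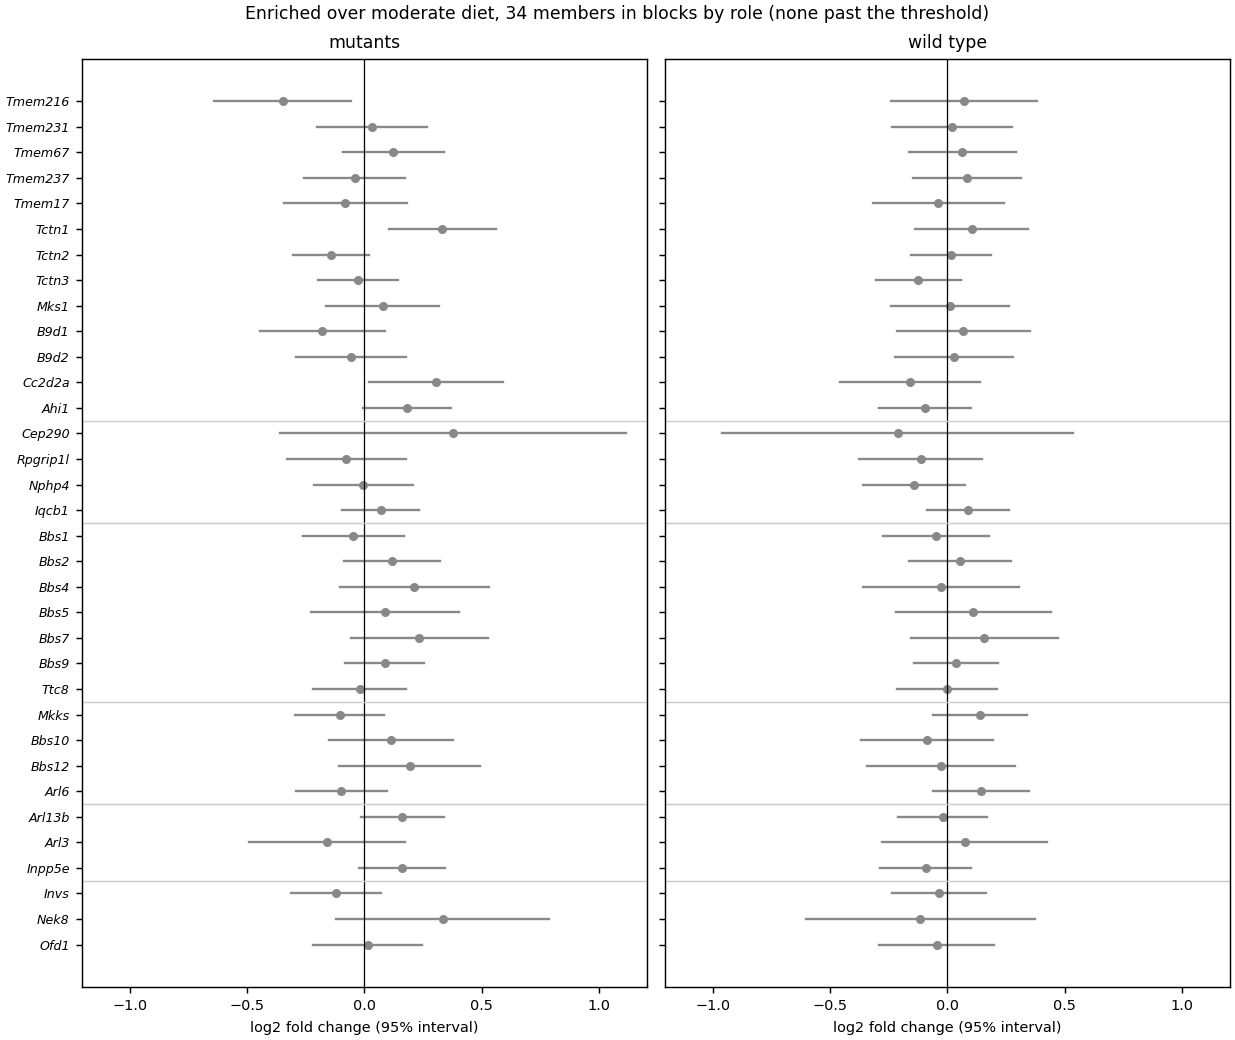
Log2 fold change of each of the 34 genes with its 95% interval for enriched over moderate diet, in mutants (left) and wild type (right). No point passed the threshold, and Tctn1, Tmem216 and Cc2d2a have intervals that exclude 0 in mutants.

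Whether diet altered the effect of Ift88 loss was tested as the genotype effect on the enriched diet minus that on the moderate diet. No member passed with edgeR, DESeq2 or limma, and none of the 14514 genes did either. At an unadjusted p under 0.05 there were 3 of 34 members, beside 9.65% of genes. These were Cc2d2a with a difference of 0.46 ± 0.19 on the log2 scale (edgeR adjusted p = 0.501), Ahi1 with 0.28 ± 0.12 and Tmem216 with -0.42 ± 0.19. For Tmem231 the difference was 0.01 with a 95% interval of -0.32 to 0.35. For Iqcb1 it was -0.02 with an interval of -0.25 to 0.21. The larger count on the enriched diet, 11 members against 2, was therefore not matched by a difference that passed in any 1 member.

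Members of 1 complex were not present at equal levels. Per kilobase of exon, Arl3 was highest with 34.9 ± 5.33 CPM per kilobase in mutants and 29.99 ± 4.81 in wild type (SD, n = 8 each, both diets). Tmem237 followed with 18.1 ± 1.63 in mutants and 15.4 ± 1.45 in wild type, and Nek8 was lowest with 0.772 ± 0.309 in mutants and 0.658 ± 0.0592 in wild type. The 7 BBSome subunits among the members occur once each in the complex. Their levels ran from 1.78 in Bbs7 to 7.14 in Ttc8 in mutants, a ratio of 4.02. In wild type they ran from 1.27 in Bbs7 to 6.21 in Ttc8, a ratio of 4.89. Bbip1 was not part of this ranking. Bbs7, with the lowest level of these 7 subunits, also had the largest log2 fold change among them. Tmem216 held place 16 of 34 by level in mutants and place 7 in wild type, while Arl13b held place 11 in mutants and place 16 in wild type. Neighbours such as B9d1, Arl6 and Mkks, at 10.7 to 11.6 in mutants and 12.5 to 12.7 in wild type, did not differ beyond their SD. These levels divide reads by the union of annotated exons, so a gene whose main transcript lacks some of those exons is read too low.

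**Figure D4:**
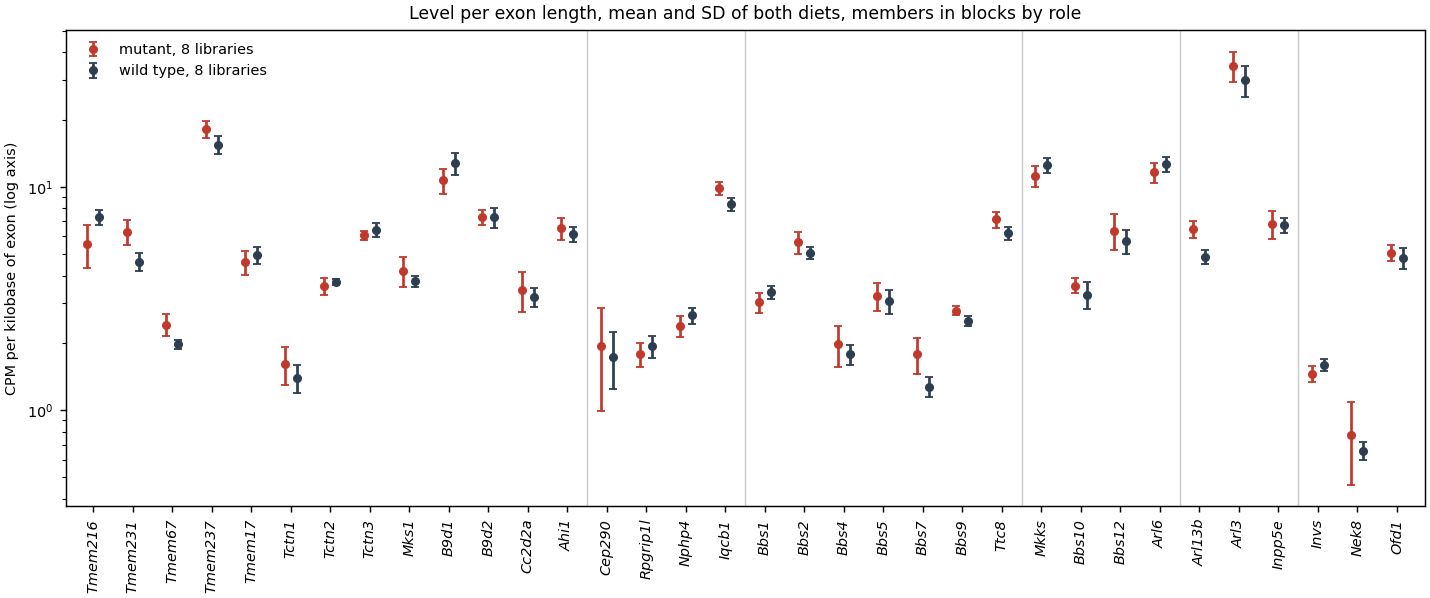
Level of the 34 genes in CPM per kilobase of exon (log axis), mean and SD of 8 mutants and 8 wild type libraries, in blocks by role. Arl3 is highest at 34.9 in mutants and 29.99 in wild type, and Nek8 lowest at 0.772 in mutants and 0.658 in wild type.

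The spread between embryos differed among members and groups. The median coefficient of variation was 11.6% in enriched mutants, 9.08% in enriched wild type, 8.49% in moderate mutants and 7.73% in moderate wild type. Cep290 was the most variable gene in each group, at 53.4% in enriched mutants, 33.3% in enriched wild type, 38.8% in moderate mutants and 27.8% in moderate wild type. Enriched mutant replicate 4 was the highest library of its group in 19 of the 34 genes, and it had the largest share of reads on no annotated feature, 17.0% within a range of 13.7 to 17.0%. In the same library the summed yolk sac and visceral endoderm markers reached 109 CPM, with Afp at 57.7 CPM. That sum was at most 27.1 CPM in enriched wild type, 30.7 in moderate mutants and 20.7 in moderate wild type. Whether this bears on the levels of the members was not tested. Without enriched mutant replicate 4, 5 members passed on the enriched diet in place of 11. Enriched wild type replicate 3 was the lowest of its group in 15 of 34 genes, and without it 4 members passed.

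**Figure D5:**
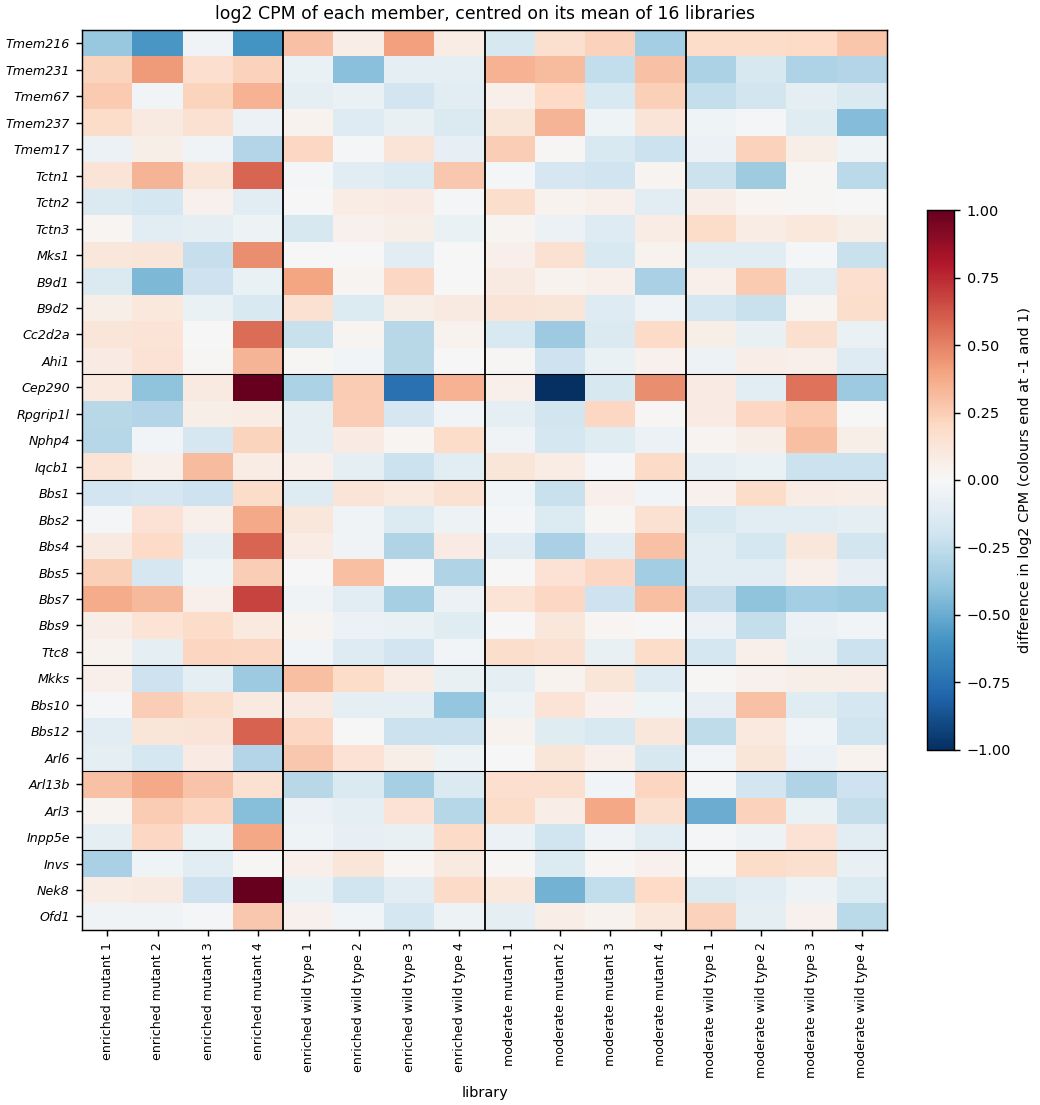
Log2 CPM of each of the 34 genes (rows) in the 16 libraries (columns, enriched mutants, enriched wild type, moderate mutants and moderate wild type from left to right), centred on the mean of each gene. Cep290 shows the largest range, and enriched mutant replicate 4 is the highest of its group in 19 of 34 genes.

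Of 37 further genes of the same compartments that were tested, 3 rose and 9 fell in enriched mutants, none rose and 1 fell in moderate mutants, and 5 rose and 9 fell averaged over the diets. These are 32.4%, 2.70% and 37.8% of the 37, beside 31.2%, 7.62% and 35.8% of all genes. Their median averaged log2 fold change was -0.05, beside 0.12 for the 34 members. Of 18 transition zone and distal appendage genes, 2 rose and 4 fell averaged over the diets, 33.3% beside 35.8% of all genes. Cby1, a distal appendage protein that helps vesicles dock, fell by 0.51 ± 0.08 on the log2 scale averaged over the diets (edgeR adjusted p = 0.000148). It averaged 21.7 ± 1.72 CPM in enriched mutants and 33.9 ± 2.37 CPM in enriched wild type, and 26.1 ± 4.42 CPM in moderate mutants and 33.2 ± 3.22 CPM in moderate wild type. Armc9 (-0.32) fell as well, and Tmem107 (0.27) rose in the averaged comparison.

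Of 12 genes for lipid-modified proteins and membrane cargo, 4 fell and 2 rose averaged over the diets, 50% of them beside 35.8% of all genes (17.4% up and 18.5% down). Tub, a carrier of membrane receptors into cilia, had 10.8 ± 2.62 CPM in enriched mutants and 16.3 ± 1.83 CPM in enriched wild type, and 12.1 ± 1.71 CPM in moderate mutants and 17.3 ± 1.11 CPM in moderate wild type. It was the only 1 of the 37 to pass on the moderate diet (log2 fold change -0.53, edgeR adjusted p = 0.0419). Arl2bp, a partner of Arl2 and Arl3 (-0.37), Unc119b, a carrier of myristoylated proteins (-0.32), and Smo, the Hedgehog transducer (-0.20), fell averaged over the diets, while Rp2h, which acts on Arl3 (0.23), and Arl2 (0.20) rose. Of 7 BBSome and inversin genes, Rab8a, a GTPase of ciliary membrane traffic (-0.23), fell and Anks6, which binds Nek8 (0.23), rose averaged over the diets. That is 28.6% of the 7, beside 35.8% of all genes.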

How the data were processed

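RNA was sequenced from the part of the head named above in 16 embryos with an unstranded TruSeq kit, per the labels' protocols. The authors deposited unnormalized read counts by gene symbol, made with TopHat2 2.1.1 on mm10 and HTSeq 0.9.1, per the submitters' processing notes, which also list FastQC 0.11.5, SAMtools 1.8 and DESeq2 1.22.2. Counting mode, strand option and annotation are not stated by those sources. The 5 summary lines of each file were left out. Genes reaching 10 counts in 4 or more libraries were kept (14514 of 24421, all 34 members included) and scaled with trimmed means. They were fitted in edgeR 4.0.16 (R 4.3.3) over all 16 libraries by group, with the labelled sex as covariate, and p-values were adjusted over all genes in each of 6 contrasts at a threshold of 0.05. The alternatives used limma 3.58.1 and DESeq2 1.42.0, among others. CPM are read counts scaled to the adjusted library total. Coordinates and exon lengths are from GENCODE vM21, by symbol. Fits were tested on simulated data. Members and lists were chosen with earlier results of these data known. Members past the threshold are named, the 10 with the smallest adjusted p with every library, and up to 6 further genes per list by smallest p averaged over the diets. Some genes within this rule are not reported here. Togaram1 is listed as Fam179b and Rp2 as Rp2h, and Rpgrip1 was too low to test. No 2 libraries held identical values. Intervals cover the spread between libraries only.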

Additional observations from a re-analysis of the deposited data

Results flagged for a closer look

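In 15 of 140 sets of 4 libraries (the 34 members and Ift88 in each group), 1 library stood far from the other 3 by Dixon's criterion. That is 10.7%, where chance alone flags about 1 in 20.

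Enriched mutant replicate 4 was the high library for Nek8 at 7.79 CPM (next 3.85), Bbs1 at 27.7 CPM (next 21.8) and Ofd1 at 26.4 CPM (next 21.7). In enriched wild type, replicate 2 was low for Tmem231 at 21.5 CPM (next 26.9), replicate 3 was low for Mks1 at 14.8 CPM (next 15.96) and Ahi1 at 36.6 CPM (next 43.6), and replicate 4 was high for Inpp5e at 33.1 CPM (next 28.1).

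In moderate mutants, replicate 3 was low for Tmem231 at 24.3 CPM (next 35.3) and Ttc8 at 23.9 CPM (next 27.9), and replicate 4 was low for B9d1 at 14.8 CPM (next 18.9). In moderate wild type, replicate 3 was high for Nphp4 at 18.7 CPM (next 15.8) and Bbs5 at 7.94 CPM (next 7.21). Replicate 2 of that group was low for Bbs9 at 13.99 CPM (next 15.8), high for Bbs10 at 12.8 CPM (next 9.85) and low for Ift88 at 9.30 CPM (next 19.9).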

How the results depend on the processing

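No member changed direction where it had passed. The number of members past the threshold for genotype on the moderate diet, 2, became 4 with DESeq2, 5 at an adjusted p of 0.1, 0 with the compared libraries alone, 0 without the 3 libraries whose sex label was contradicted and 6 without moderate wild type replicate 2, moderate mutant replicate 3 and enriched mutant replicate 3. Leaving out 1 library at a time gave 0 to 6: 0 without moderate mutant replicate 1, 2 or 4 or moderate wild type replicate 3, 1 without moderate wild type replicate 1, 2 or 4, and 6 without moderate mutant replicate 3. On the enriched diet, 11 became 4 with the compared libraries alone and 4 to 12 with 1 library left out, 5 of them without enriched mutant replicate 4 and 4 without enriched wild type replicate 3. Averaged over the diets, 12 became 5 without the 3 libraries whose sex label was contradicted and 8 to 12 with 1 library left out. Diet in mutants, diet in wild type and the difference of the genotype effects gave 0 members in every alternative, leave-one-out fits included. Arl13b, Tmem231, Bbs7 and Tmem216 passed on the enriched diet, and these 4 and Iqcb1 averaged over the diets, in every alternative run. The causes of these shifts were not tested. Replicate numbers recur across groups, but same-numbered libraries did not deviate together in every pair (correlations of -0.291 to 0.505, with 2 of 4 pairs over 0.1 for genotype on each diet and for diet in mutants, and 0 of 4 for diet in wild type), so the numbers were not taken to pair them. With the replicate number as a block, 3 members passed on the moderate diet, 12 on the enriched diet and 11 averaged, and 0 in the other comparisons.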
